A study of Mus musculus with 20 samples.

Results

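Trim33-KO p19/Nras cells that carried a vector for Myc were compared with Trim33-KO cells that carried a Ctrl vector, across all genes of the RNA-seq count table. The comparison was chosen by labels alone. It holds 8 of the 20 libraries of the series, the 4 labelled KO Myc (2 each of KO1 Myc and KO2 Myc) against the 4 labelled KO Ctrl (2 each of KO1 Ctrl and KO2 Ctrl), and the lines were pooled within each vector. All 8 libraries come from p19/Nras, a line grown from a mouse liver cancer that Nras had driven. They therefore share Nras as the oncogene and the absence of the tumor suppressor p19/Arf, which the mice lacked. Trim33, a ubiquitin ligase, was knocked out by CRISPR. The labels do not say whether each KO line is 1 clone, nor which driver the Myc vector has. The same experiment holds 2 libraries labelled WT Ctrl and 2 labelled WT Myc, which are Trim33-WT cells with the same vectors, and these 4 serve here for the test of the difference between genotypes and as reference levels. The second experiment of the series, on hydroxyurea, was not analysed here. Nothing in the labels says that replicates 1 and 2 of a group came from separate cultures, so the p-values measure the spread between these libraries, which may be technical.

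Myc is a transcription factor that binds DNA at E-box sequences together with its partner Max, and it is known for raising the genes of ribosome production, nucleotide synthesis and cell cycle entry in liver tumors. A separate program, the integrated stress response, answers shortage of amino acids. In that response, kinases that sense amino acid shortage or misfolded protein phosphorylate the initiation factor eIF2, translation of the transcription factor Atf4 goes up, and Atf4 raises amino acid transporters, amino acid synthesis enzymes and aminoacyl-tRNA synthetases. Sterol synthesis is under separate control, by the transcription factor Srebf2, which is held inactive when cholesterol is plentiful.

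The 8 libraries held between 15084070 and 17949430 counts each. The table lists 13107 genes, of which edgeR's low-count filter kept 12465 for the test. Of the 22 hepatocyte marker genes, 3 were in the table, and their summed level lay between 0.716 and 3.39 CPM in the libraries labelled KO Ctrl and between 1.05 and 1.93 in those labelled KO Myc. The defining hepatocyte markers Alb, Apoa1, Ttr and Hnf4a were not listed. CPM, the level used throughout, is each gene's count scaled to a common library size with TMM factors. Bile duct and progenitor markers (8 of 15 in the table) summed to between 5153 and 5261 CPM with the Ctrl vector and to between 3117 and 4144 with the Myc vector. Mesenchymal markers (12 of 18) summed to between 3490 and 4051 and to between 3117 and 3579. Immune markers (2 of 18) stayed between 30.6 and 53 CPM in all 8 libraries and endothelial markers (3 of 12) between 3.09 and 4.63, and the immune marker Ptprc and the endothelial marker Cdh5 were not listed. The part of these shifts in the results was not tested, and in bulk RNA fewer cells of a kind cannot be told apart from less RNA per cell.

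The targeted gene gave an incomplete check of the labels. Trim33 mRNA (Entrez 94093, mm9 chr3:103083216-103162691, plus strand, protein coding) was 123 and 130.4 CPM in the libraries labelled KO1 Ctrl and 201 and 207 in those labelled KO2 Ctrl. With the Myc vector it was 185 and 193 under the label KO1 and 124 and 125 under the label KO2. For comparison, it was 246 and 258 in WT Ctrl but 131 and 155 in the libraries labelled WT Myc, below both libraries labelled KO1 Myc. A CRISPR edit need not remove the mRNA, so that neither the presence of Trim33 mRNA nor this order settles the genotype. Between the libraries labelled KO Myc and KO Ctrl the groups overlapped, and the difference was not detectable (log2 fold change −0.09, standard error 0.223, edgeR adjusted p = 0.801). The line numbers also went against each other. Across genes, the difference of KO1 from KO2 with the Ctrl vector correlated negatively with the same difference with the Myc vector (Pearson r = −0.746 over 13107 genes, which are not independent replicates). The mean profile labelled KO1 Myc was most like that labelled KO2 Ctrl (r = 0.9821 on the log2 CPM scale) and that labelled KO2 Myc most like that labelled KO1 Ctrl (r = 0.9819), against 0.9641 and 0.9556 between groups of the same number. Pooling both lines within each vector leaves the comparison free of these numbers, provided that the vector labels hold.

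Myc mRNA itself was higher in all 4 libraries labelled KO Myc. Myc (Entrez 17869, mm9 chr15:61816946-61821929, plus strand, protein coding) was 186, 196, 210.3 and 218 CPM in the libraries labelled KO Ctrl. With the Myc vector the KO1 libraries had 621 and 646 CPM and the KO2 libraries 459 and 499. The groups did not overlap, and the rise was 2.74-fold on the mean CPM (log2 fold change 1.45, standard error 0.116, edgeR adjusted p = 0.000157). In Trim33-WT cells Myc mRNA was 433 and 439 CPM with the Ctrl vector and 456 and 458 with the Myc vector (log2 fold change 0.07), and the change with the vector in KO minus that in WT was 1.38 on the log2 scale (standard error 0.0677, edgeR adjusted p = 3.44e-10). The levels labelled KO Myc, from 459 to 646 CPM, therefore lay above the WT Ctrl libraries, and those labelled KO Ctrl below them. Whether these transcripts came from the vector or from the native locus cannot be told from counts per gene.

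**Figure D1:**
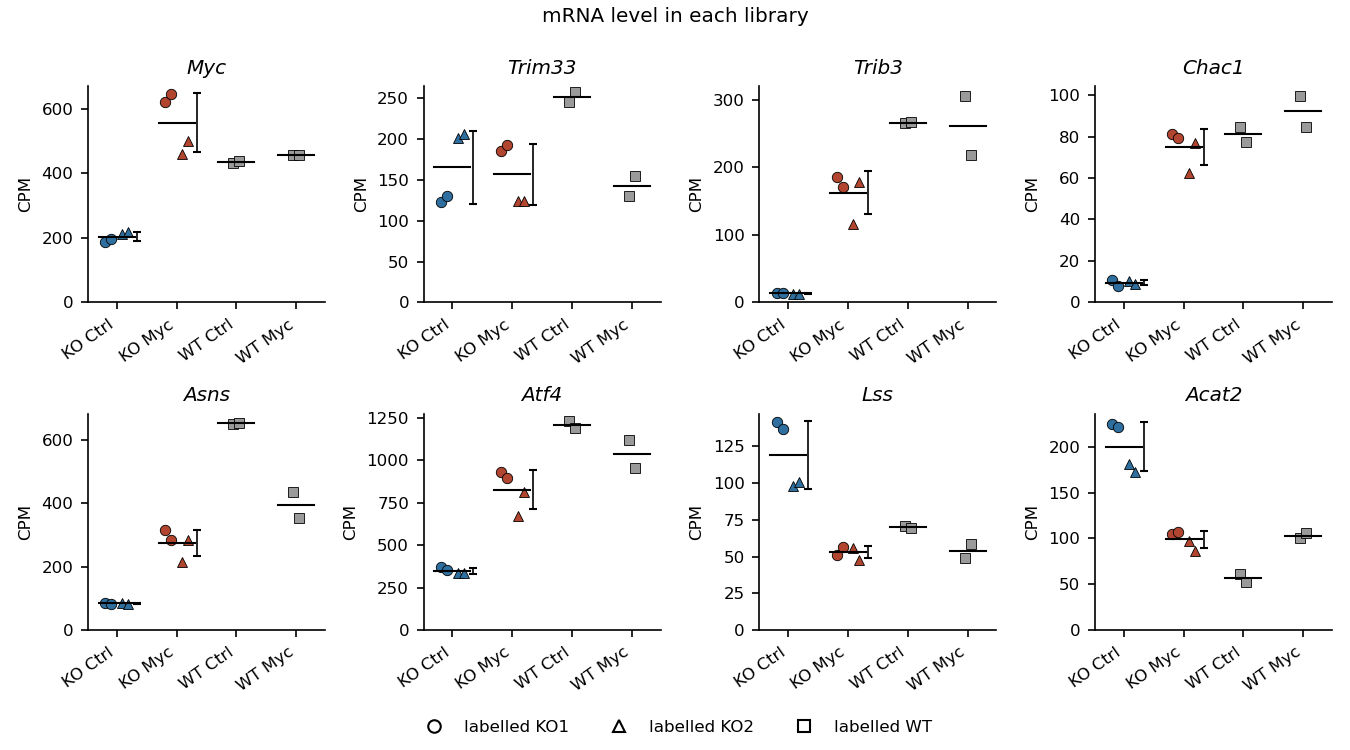
Level of 8 mRNAs in each library, in CPM from 0 on the vertical axis, for the 4 libraries labelled KO Ctrl, the 4 labelled KO Myc and, in gray, 2 libraries each labelled WT Ctrl and WT Myc. Points are libraries, with the shape giving the labelled line, horizontal bars are means and error bars are SDs over 4 libraries. Myc, Trib3, Chac1, Asns and Atf4 lie higher in every KO Myc than in every KO Ctrl library, Lss and Acat2 lie lower, and Trim33 overlaps.

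Over all genes, the Myc vector went with rises and falls in similar numbers. Of 12465 genes tested, 2092 (16.8%) were called at an adjusted p-value under 0.01, 1098 higher (8.81%) and 994 lower (7.97%) in the libraries labelled KO Myc. The median log2 fold change over all genes tested was −0.001, with quartiles of −0.209 and 0.216. TMM scaling centers the bulk of genes near 0, so a change in total RNA per cell could not have shown here. Most changes were small. The median log2 fold change was 0.457 among genes that rose and −0.452 among genes that fell, and 133 rose and 94 fell by at least 1 on the log2 scale. In every called gene the 4 libraries labelled KO Myc lay wholly above or wholly below the 4 labelled KO Ctrl, as they also did in 2268 genes that were not called. Of all 13107 genes, 17.2% lay wholly above and 16.1% wholly below, and 8.38% and 7.58% were also called. At an unadjusted p under 0.05 there were 5408 genes. Since the lines were pooled, the spread in this fit includes the difference between lines, and the biological coefficient of variation was 0.168, against 0.0498 with a coefficient for each of the 6 groups. The number of called genes fell to between 1225 and 1569 when any 1 of the 8 libraries was left out. It was 1225 without KO2 Myc replicate 2, 1391 and 1311 without replicate 1 or 2 of KO1 Ctrl and 1384 and 1359 without replicate 1 or 2 of KO2 Ctrl.

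**Figure D2:**
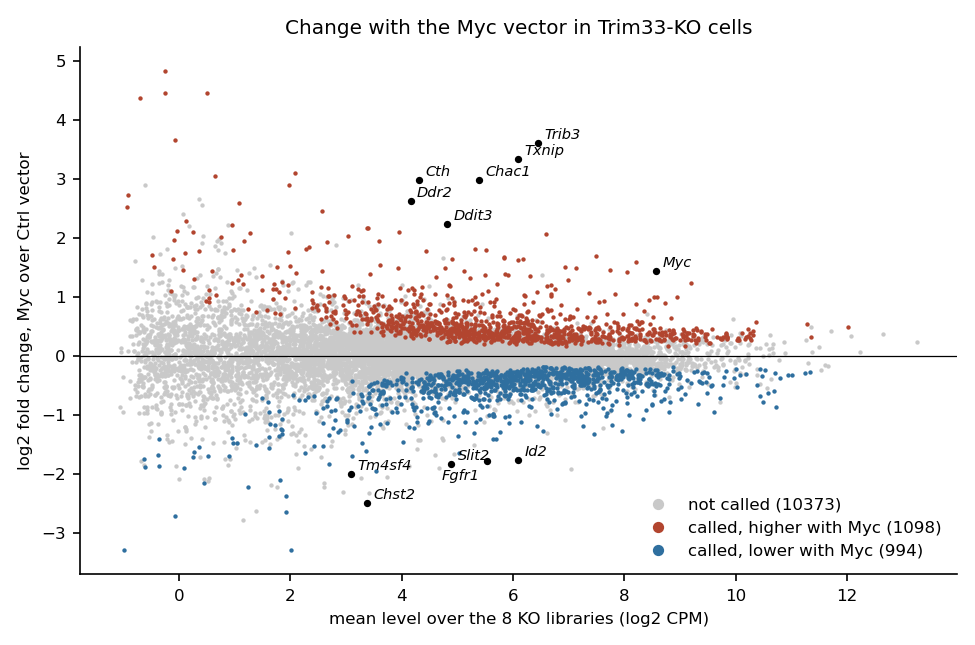
Log2 fold change of Myc over Ctrl vector in Trim33-KO cells (vertical axis) against the mean level over the 8 KO libraries (horizontal axis, log2 CPM) for the 12465 genes tested. Genes called higher (1098) and lower (994) are colored, and the integrated stress response genes Trib3, Cth, Chac1 and Ddit3 stand among the largest rises.

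Among called genes with a mean of at least 5 CPM, the 8 largest rises were of Trib3, Txnip, Cth, Chac1, Ddr2, Dusp2, Ddit3 and Reep6. Trib3, a pseudokinase induced by Atf4 and Ddit3, was 14.5, 13.3, 13.1 and 11.9 CPM in the libraries labelled KO Ctrl and 186, 171, 115 and 178 in those labelled KO Myc, where libraries are listed here and below as KO1, KO1, KO2 and KO2. This was a 12.3-fold rise (log2 fold change 3.61, standard error 0.159, edgeR adjusted p = 1.40e-05). Txnip, an inhibitor of thioredoxin and of glucose uptake, rose from 12.2 ± 1.77 to 124 ± 17.0 CPM (SD, n = 4 each, log2 fold change 3.34). Chac1, which degrades glutathione, rose from 9.39 ± 1.18 to 74.9 ± 8.50 CPM (log2 fold change 2.99). Cth, the enzyme that makes cysteine from cystathionine, was between 4.10 and 4.70 CPM in all 4 libraries labelled KO Ctrl and 43.7, 41.1, 20.9 and 35.1 in those labelled KO Myc (log2 fold change 2.99). Ddit3, the transcription factor also known as CHOP, was 13.1, 12, 7.18 and 7.22 CPM against 38.3, 38.2, 42.5 and 67.1 (log2 fold change 2.23). Of these 8 genes, Trib3, Cth, Chac1 and Ddit3 belong to the integrated stress response list. The collagen receptor Ddr2 (log2 fold change 2.64), the phosphatase Dusp2 (2.46) and Reep6 (2.18) rose as well, and in each the labelled lines differed: Ddr2 was 20.5 and 20.6 CPM in KO1 Myc and 38 and 44.5 in KO2 Myc.

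The 8 largest falls were of Chst2, Tm4sf4, Tmem200a, Slit2, Col6a3, Fgfr1, Id2 and Has2. Chst2, a sulfotransferase for cell surface glycans, was 25.2, 21.5, 12.3 and 11.6 CPM with the Ctrl vector and 1.98, 1.67, 4.21 and 4.64 with the Myc vector (log2 fold change −2.50, standard error 0.391, edgeR adjusted p = 0.00206). Slit2, a secreted guidance ligand, was 53.4, 50.8, 38.6 and 42.6 CPM against 12.9, 13.5, 14.2 and 11.8 (log2 fold change −1.83), a fall of like size in both labelled lines. Fgfr1, a receptor tyrosine kinase for fibroblast growth factors, fell from between 62.5 and 85.8 CPM to between 11.8 and 31.6 (log2 fold change −1.78). The tetraspanin-like Tm4sf4 (log2 fold change −2.01), Tmem200a (−1.95), the collagen VI chain Col6a3 (−1.83) and the hyaluronan synthase Has2 (−1.70) fell with them. Id2, an inhibitor of helix-loop-helix transcription factors and a target of BMP signaling, was 90.0, 92.7, 121 and 117 CPM against 27.1, 26.1, 38 and 33.8 (log2 fold change −1.76). The calls of Col6a3, Has2 and Reep6 are the less secure of these 16, since they were lost under 7, 10 and 5 of 20 alternative fits.

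The genes of the integrated stress response moved together. All 26 genes of the list were tested and 23 rose, while 0 fell, against 8.81% and 7.97% of all genes tested. Their median log2 fold change was 1.19, with quartiles of 0.855 and 1.63, against −0.001 over all genes. The number that rose lay between 19 and 24 when both libraries of any labelled line and vector were left out. Such fits, also used for the lists below, called between 1191 and 1387 genes in all, against 2092 with all 8 libraries. Atf4, the transcription factor of the response (named after its values were seen, as are Atf3, Slc7a5, Slc3a2, Slc7a11, Psat1, Cebpg and the 3 members that were not called), was 373, 353, 339 and 336 CPM with the Ctrl vector and 933, 894, 674 and 813 with the Myc vector (log2 fold change 1.24, standard error 0.0965, edgeR adjusted p = 0.000153). Asns, asparagine synthetase, was 84.3, 83.2, 87.0 and 83.6 CPM against 315, 283, 216 and 286 (log2 fold change 1.69, edgeR adjusted p = 7.95e-05). Every library labelled KO Myc lay above every library labelled KO Ctrl for both genes, and the KO2 Myc replicate 1 library was the lowest of the 4 for both. The amino acid transporters rose: Slc7a5 by 1.60 on the log2 scale, its partner chain Slc3a2 by 1.43, the cationic amino acid carrier Slc7a1 by 1.05 and the cystine carrier Slc7a11 by 0.72. The transcription factors Atf3 (log2 fold change 1.32) and Cebpg (0.86), the stress sensor Sesn2 (1.82) and the serine synthesis enzymes Phgdh (0.67) and Psat1 (0.89) rose too. Members that were not called were Nupr1 (0.85), Vldlr (0.69) and Stc2 (−0.53).

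The Atf4 binding element was searched for in the promoters of these genes, because they moved as a group. RefSeq promoter windows (GRCm38.p6, 250 bases before to 50 after each start site) were matched by Entrez number for 9796 of the 13107 genes. The element was written as TGATGNAA on either strand, and a gene counted when any of its windows held it. It was present for 7 of 22 stress response genes with a window (31.8%) and for 5 of 13 aminoacyl-tRNA synthetases (38.5%), against 2.77% of all 9796 genes. In other lists described below it was present for 1 of 18 cholesterol genes (5.56%) and 1 of 12 fatty acid genes (8.33%). It was also present for 2 of 54 ribosome biogenesis genes (3.7%). Of 58 cytosolic ribosomal protein genes and of 13 serine, glycine and folate enzymes, 0 held it. The share of a list rests on its membership and on sequence, and not on the levels in these libraries. Genes already tied to the response make up the stress response list, so its share is not independent of how the list was made. Of genes that rose, 5.20% held the element, and of genes that fell, 2.52%. The 250 bases before the start site are shown, with the element in capitals, for 4 stress response genes and 2 synthetases that rose and whose element lies upstream, as examples of both lists. Aars also rose with an element upstream and is not shown, while Vldlr and Nupr1 carry the element upstream and were not called. They are Chac1 (chr2:119350992-119351241, plus strand), Asns (chr6:7693210-7693459, minus strand), Slc7a11 (chr3:50443614-50443863, minus strand), Atf3 (chr1:191183334-191183583, minus strand), Gars (chr6:55037751-55038000, plus strand) and Tars (chr15:11399659-11399908, minus strand), each written 5′ to 3′ on the strand of the gene.
Chac1: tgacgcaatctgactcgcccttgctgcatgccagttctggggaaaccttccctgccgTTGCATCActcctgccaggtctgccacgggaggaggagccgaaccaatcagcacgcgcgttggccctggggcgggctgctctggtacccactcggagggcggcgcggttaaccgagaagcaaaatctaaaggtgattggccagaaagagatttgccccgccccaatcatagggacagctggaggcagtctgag
Asns: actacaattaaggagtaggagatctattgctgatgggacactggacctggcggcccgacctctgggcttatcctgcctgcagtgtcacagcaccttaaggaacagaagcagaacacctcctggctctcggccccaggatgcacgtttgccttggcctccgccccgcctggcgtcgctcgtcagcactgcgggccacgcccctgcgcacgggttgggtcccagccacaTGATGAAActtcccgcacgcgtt
Slc7a11: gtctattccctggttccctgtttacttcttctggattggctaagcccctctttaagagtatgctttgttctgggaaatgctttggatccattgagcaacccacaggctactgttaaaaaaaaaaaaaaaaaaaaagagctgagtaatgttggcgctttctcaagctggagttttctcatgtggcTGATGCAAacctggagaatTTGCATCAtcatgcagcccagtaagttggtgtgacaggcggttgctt
Atf3: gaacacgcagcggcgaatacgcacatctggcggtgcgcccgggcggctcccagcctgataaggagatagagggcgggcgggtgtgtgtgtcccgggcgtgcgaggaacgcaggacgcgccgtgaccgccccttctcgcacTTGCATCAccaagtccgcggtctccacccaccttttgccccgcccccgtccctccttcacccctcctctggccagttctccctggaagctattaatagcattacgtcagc
Gars: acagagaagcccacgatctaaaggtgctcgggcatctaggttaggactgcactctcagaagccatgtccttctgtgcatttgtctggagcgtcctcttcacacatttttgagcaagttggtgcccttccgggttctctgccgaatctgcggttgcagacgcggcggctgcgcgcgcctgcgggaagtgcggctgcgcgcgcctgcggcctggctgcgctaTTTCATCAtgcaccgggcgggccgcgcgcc
Tars: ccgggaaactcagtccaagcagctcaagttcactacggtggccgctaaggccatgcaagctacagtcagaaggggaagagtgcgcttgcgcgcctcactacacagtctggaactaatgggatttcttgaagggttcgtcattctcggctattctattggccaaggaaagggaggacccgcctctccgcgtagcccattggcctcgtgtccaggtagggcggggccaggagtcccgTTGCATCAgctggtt
In Chac1, Atf3, Gars and Tars the element stands in its reverse complement, in Asns it stands forward, and Slc7a11 has a copy in each direction. Trib3, which had the largest rise among genes with a mean of at least 5 CPM, has its element just after the start site. Such a match is a description of letters and not of binding, which was not measured in these libraries.

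The aminoacyl-tRNA synthetases, which load amino acids onto their tRNAs, rose with the stress response. Of 20 cytosolic synthetases, 16 rose and 0 fell (80% and 0%, against 8.81% and 7.97% of all genes tested). Their median log2 fold change was 0.466, and all 20 log2 fold changes were above 0. Between 11 and 16 rose when both libraries of a labelled line and vector were left out. Nars, which loads asparagine, was 345, 331, 312 and 322 CPM with the Ctrl vector and 736, 708, 539 and 659 with the Myc vector (log2 fold change 1.00, standard error 0.0920, edgeR adjusted p = 0.000241). Gars for glycine (log2 fold change 1.00), Sars for serine (0.95) and Aars for alanine (0.59) rose with adjusted p-values of at most 0.000278. In Aars the 4 libraries labelled KO Ctrl spanned only 249 to 255 CPM, against 351 to 417 in those labelled KO Myc. Iars, for isoleucine, rose by 0.77 and Tars, for threonine, by 0.46, and the call of Tars was lost under 11 of 20 alternatives (both genes were named after their values were seen).

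Enzymes of serine, glycine and folate metabolism were collected into a list after their values were seen, and 5 of its members also belong to the stress response list. Of the 15 tested, 11 rose and 1 fell (73.3% and 6.67%, against 8.81% and 7.97% of all genes tested). Their median log2 fold change was 0.667. Mthfd2, the mitochondrial folate enzyme, was 73.6, 68.0, 78.4 and 75.3 CPM against 239, 226, 162 and 205 (log2 fold change 1.49, edgeR adjusted p = 0.000153). Shmt2, which splits serine into glycine in mitochondria, rose by 1.00 on the log2 scale and Aldh1l2 by 1.34. Cbs, which makes the cystathionine that Cth uses, was the member that fell, from between 1.58 and 3.12 CPM to between 0.415 and 0.988 (log2 fold change −1.70), a call lost under 8 of 19 alternatives.

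**Figure D3:**
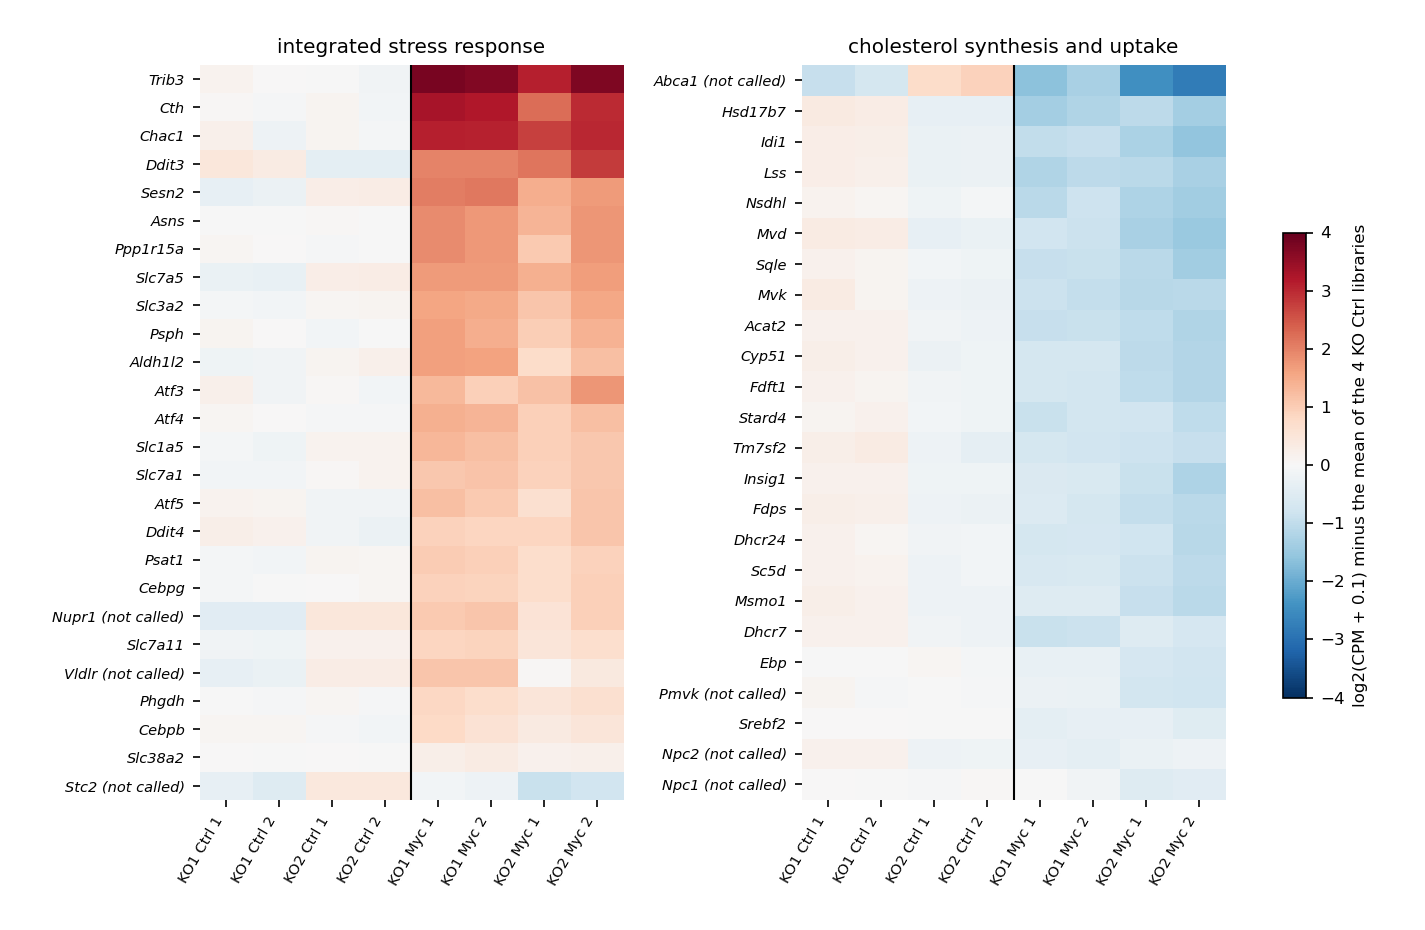
Level of members of the integrated stress response list (left, 26 genes) and of the cholesterol list (right, 24 of 26 genes) in the 8 libraries, as log2(CPM + 0.1) minus the mean of the 4 libraries labelled KO Ctrl, with red above and blue below 0. Columns right of the line are the libraries labelled KO Myc, and members that were not called are marked.

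Cholesterol synthesis and uptake genes changed in the opposite direction. Of 26 tested, 22 fell and 0 rose (84.6% and 0%, against 7.97% and 8.81% of all genes tested). Their median log2 fold change was −0.882 (quartiles −1.10 and −0.764), and all 26 log2 fold changes were below 0. Lss, lanosterol synthase, was 142, 137, 98.2 and 100.6 CPM with the Ctrl vector and 51.2, 56.8, 55.7 and 47.8 with the Myc vector (log2 fold change −1.18, standard error 0.130, edgeR adjusted p = 0.000468). Acat2, the acetyl-CoA acetyltransferase at the start of the pathway, was 225, 222, 181 and 173 CPM against 104, 108, 97.4 and 86.5 (log2 fold change −1.02), and the sterol carrier Stard4 fell by 0.86. The libraries labelled KO1 Ctrl were above those labelled KO2 Ctrl for these 3 genes, and the 8 libraries still did not overlap between vectors. Without both libraries of KO1 Ctrl 13 genes of the list fell and without both of KO2 Myc 14 did. Among members named after their values were seen, the isoprenoid enzyme Idi1 fell by 1.19 and the squalene epoxidase Sqle by 1.07. The transcription factor Srebf2 fell by 0.39. The 4 members that were not called included the cholesterol exporter Abca1 (log2 fold change −2.22, edgeR adjusted p = 0.0120). A sterol response element written as TCACNCCAC, searched on either strand, was in 0 of the 18 promoter windows of this list and in 1.33% of all 9796 genes, which says only that these letters are absent from these windows.

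Fatty acid synthesis and desaturation genes, a list also collected after the values were seen, fell in 8 of 15 cases and rose in 1. These are 53.3% and 6.67%, against 7.97% and 8.81% of all genes tested, and the median log2 fold change was −0.512. Scd1, the desaturase that makes oleate, was 622, 587, 561 and 584 CPM against 297, 328, 324 and 274 (log2 fold change −0.95, standard error 0.0635, edgeR adjusted p = 9.70e-05). The elongase Elovl6 fell by 0.76.

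Ribosomal protein genes rose by small and even amounts. Of 79 cytosolic ribosomal protein genes, 52 rose and 0 fell (65.8% and 0%, against 8.81% and 7.97% of all genes tested). All 79 log2 fold changes were above 0, with quartiles of 0.272 and 0.376 around a median of 0.312. Many ribosomal protein genes have pseudogene copies that can share reads, so their counts are less certain than those of other genes. Rpl28 was 317, 312, 294 and 298 CPM against 442, 408, 407 and 429 (log2 fold change 0.46, standard error 0.0444, edgeR adjusted p = 0.000299). Rpl36 rose by 0.50, Rpl10a by 0.45 and Rpl12 by 0.39. The number that rose depended on the libraries, with 14 without both libraries of KO2 Ctrl, 28 without both of KO1 Myc and 77 with a coefficient for each group (where 21.1% of all genes rose), while the median stayed between 0.257 and 0.367.

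Ribosome biogenesis genes, classical Myc targets that process ribosomal RNA, rose in 24 of 61 cases and fell in 1. These are 39.3% and 1.64%, against 8.81% and 7.97% of all genes tested, and the median log2 fold change was 0.247. Without both libraries of KO2 Myc 14 rose, in a fit that called 1387 genes in all, against 2092 with all 8 libraries. With a coefficient for each group 41 rose, where 21.1% of all genes did. Rrp1b was 50.1, 52.1, 56.8 and 60.5 CPM with the Ctrl vector and between 87.0 and 89.0 in all 4 libraries with the Myc vector (log2 fold change 0.68, edgeR adjusted p = 0.000316). Wdr74 (0.68), Nop14 (0.66) and Rcl1 (0.49) rose, and Bysl fell by 0.33, a call lost under 8 of 20 alternatives. Among the well-known Myc targets chosen by name, Nop56 rose by 0.45 while Ncl, nucleolin, missed the threshold, with 2201, 2251, 2184 and 2238 CPM against 2509, 2484, 2903 and 2869 (log2 fold change 0.27, edgeR adjusted p = 0.0105). The E-box CACGTG, which reads the same on both strands, was in the windows of 11 of 54 ribosome biogenesis genes (20.4%), of 15.5% of genes that rose, of 13.5% of genes that fell and of 11.6% of all 9796 genes. Of these 11, 7 were not called. It was also in the windows of 4 of 13 synthetases (30.8%) and of 5 of 18 cholesterol genes (27.8%). Of serine, glycine and folate enzymes 2 of 13 held it (15.4%), and of cytosolic ribosomal proteins 6 of 58 (10.3%). Fewer held it among fatty acid genes, 1 of 12 (8.33%), and stress response genes, 1 of 22 (4.55%). Hits of the 3 motifs shared bases in 4 of 12439 windows.

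The other groups commonly tied to Myc were mixed, with shares to be set beside the 8.81% that rose and 7.97% that fell of all genes tested. Of 40 translation factors 12 rose and 2 fell (30% and 5%, median log2 fold change 0.118): the eIF4E inhibitor Eif4ebp1 rose by 0.92, Eif4b by 0.35, and Eif4g2 fell by 0.37. Of 30 nucleotide synthesis genes 10 rose and 2 fell (33.3% and 6.67%, median 0.14). Cad, the enzyme that starts pyrimidine synthesis, rose by 0.46, while Nme1 fell by 0.39 and Rrm1, a subunit of ribonucleotide reductase, by 0.47. Of 10 polyamine genes 1 rose (10%, near the share of all genes), spermidine synthase Srm (0.30), and Odc1, the rate-limiting enzyme, gave 0.21 (edgeR adjusted p = 0.256). Of 21 glycolysis genes 5 rose and 3 fell (23.8% and 14.3%, median 0.145). The kinases Pfkp (1.03) and Pdk1 (0.96) rose, Pfkfb4 fell by 0.79, and Ldha, lactate dehydrogenase, gave 0.14 (edgeR adjusted p = 0.151). Of 77 mitochondrial ribosomal protein genes 11 rose and 6 fell (14.3% and 7.79%, against 8.81% and 7.97% of all genes, median 0.0445). Of 15 genes of the Myc network 6 rose and 0 fell: Myc, its antagonists Mxi1 (0.76) and Mnt (0.43), the helicase Ruvbl2 (0.59), Max (0.31) and Ruvbl1 (0.25), the last 2 named after their values were seen. Srm, Ruvbl1, Pdk1, Pfkfb4, Rrm1, Max, Mnt and Pfkp lost their calls under 6 to 13 of 20 alternatives.

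Cell cycle and DNA replication genes held a mix of rises and falls, with shares given beside those of all genes. Of 44 DNA replication genes 4 rose and 3 fell (9.09% and 6.82%, against 8.81% and 7.97% of all genes tested, median log2 fold change −0.0805), of 30 genes of the G1/S transition 4 rose and 3 fell (13.3% and 10%, median −0.113), and of 40 genes of G2/M and mitosis 0 rose and 4 fell (10%, median −0.161). Rnaseh2a, a subunit of the enzyme that removes RNA from DNA, was 32.9, 32.7, 33.8 and 32.0 CPM against 69.9, 64.7, 55.8 and 60.3 (log2 fold change 0.92, edgeR adjusted p = 0.000157). The licensing factor Cdt1 rose by 0.71, whereas the licensing factor Cdc6 fell by 0.44, the flap endonuclease Fen1 by 0.41, cyclin Ccne2 by 0.88, the repressor E2f8 by 0.53, the checkpoint protein Mad2l1 by 0.51 and the cytokinesis protein Anln by 0.37. Ccnd2, cyclin D2 and a known Myc target, was 123, 127, 86.7 and 87.2 CPM against 194, 201, 240.2 and 255 (log2 fold change 1.06, edgeR adjusted p = 0.00133). The cell cycle inhibitor Cdkn1a and the stress gene Ndrg1, both known to be repressed by Myc in other cells, rose here by 0.58 and 1.30. E2f1 (log2 fold change −0.15), Cdk4 (−0.11) and Cdkn2b (0.13) were not called, and E2f4 rose by 0.23. Tert was not used here. The calls of Cdc6, Ccne2, Cdkn1a and E2f4 were lost under 9 to 12 of 20 alternatives.

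Of 26 p53 targets 8 rose and 0 fell (30.8% and 0%, against 8.81% and 7.97% of all genes tested, median log2 fold change 0.246). Among those that rose, Sesn2 and Ddit4 are members of the stress response list as well. Bbc3, the pro-apoptotic protein PUMA, was 9.38, 10.6, 9.67 and 9.5 CPM against 35.9, 34.2, 30.6 and 34.1 (log2 fold change 1.78, standard error 0.0744, edgeR adjusted p = 1.23e-05). Gadd45a rose by 1.66. Of 25 chaperones 5 rose and 5 fell (20% each): the mitochondrial Hspa9 rose by 0.58 and the cytosolic Hsph1 fell by 0.65. The unfolded protein response of the endoplasmic reticulum, in a list of 22 genes collected after the values were seen, had 2 genes that rose and 7 that fell (9.09% and 31.8%, median −0.431). Herpud1 was the larger of these rises, from 32.5, 32.7, 29.8 and 32.5 CPM to 93, 91, 71.5 and 83 (log2 fold change 1.40), while Hspa5, the main chaperone of the endoplasmic reticulum, gave −0.13 (edgeR adjusted p = 0.383). Without both libraries of KO2 Ctrl 13 genes of this list fell, without both of KO1 Myc 3 did and without both of KO2 Myc 2 did, and with a coefficient for each group 15 fell, where 20.9% of all genes did.

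All called genes of the matrix and lysosome lists fell, but most members of both lists were not called. Of 41 matrix and integrin genes 0 rose and 7 fell (0% and 17.1%, against 8.81% and 7.97% of all genes tested, median log2 fold change −0.30). Among those that fell were the protease inhibitor Timp2 (−0.80) and the basement membrane protein Nid1 (−0.76). Of 32 genes of TGF-beta and BMP signaling 1 rose and 8 fell (3.12% and 25%, median −0.185): Bmp2, a ligand, was 61.9, 62.0, 48.6 and 48.6 CPM against 20.1, 23.4, 30.0 and 28.5 (log2 fold change −1.12, edgeR adjusted p = 0.000845), and Id1 fell by 0.63. Of 33 lysosome genes 0 rose and 5 fell (0% and 15.2%, median −0.177). The membrane protein Lamp1 was 552, 537, 497 and 506 CPM against 316, 326, 322 and 309.9 (−0.72, edgeR adjusted p = 6.64e-05), and the protease Ctsd fell by 0.67. Of 28 MAPK genes 1 rose and 2 fell (3.57% and 7.14%, below the 8.81% and 7.97% of all genes, median −0.113), Jun by 0.73 and Hras by 0.37, with calls lost under 9 and 13 of 20 alternatives. Of the bile duct and progenitor markers Spp1 fell by 0.78, and of the mesenchymal markers Cdh2 fell by 0.62, both as the only called member of their lists.

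Of 26 NF-kB and TNF genes 2 rose and 2 fell (7.69% each, near the 8.81% and 7.97% of all genes tested, median log2 fold change 0.135). The genes that fell were well expressed. Ptgs2, the inducible cyclooxygenase, was 765, 746, 801 and 699 CPM against 572, 568, 498 and 604 (log2 fold change −0.43, edgeR adjusted p = 0.00207), and the NF-kB inhibitor Nfkbia fell by 0.29, a call lost under 10 of 20 alternatives. The genes that rose were near the floor of detection. Icam1, an adhesion molecule, had at most 3 counts in any library labelled KO Ctrl and was 1.34, 1.42, 2.08 and 1.60 CPM in those labelled KO Myc, at least 8.17-fold higher when the Ctrl level is set to 3 counts per library. The chemokine Ccl20 was between 0.065 and 0.457 CPM with the Ctrl vector and between 1.98 and 4.31 with the Myc vector. Of 19 interferon-stimulated genes 1 rose, Bst2 (log2 fold change 1.15), and 2 fell, among them Tapbp (−0.74), with a median of −0.195. These are 5.26% and 10.5% of the list, near the shares of all genes tested.

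**Figure D4:**
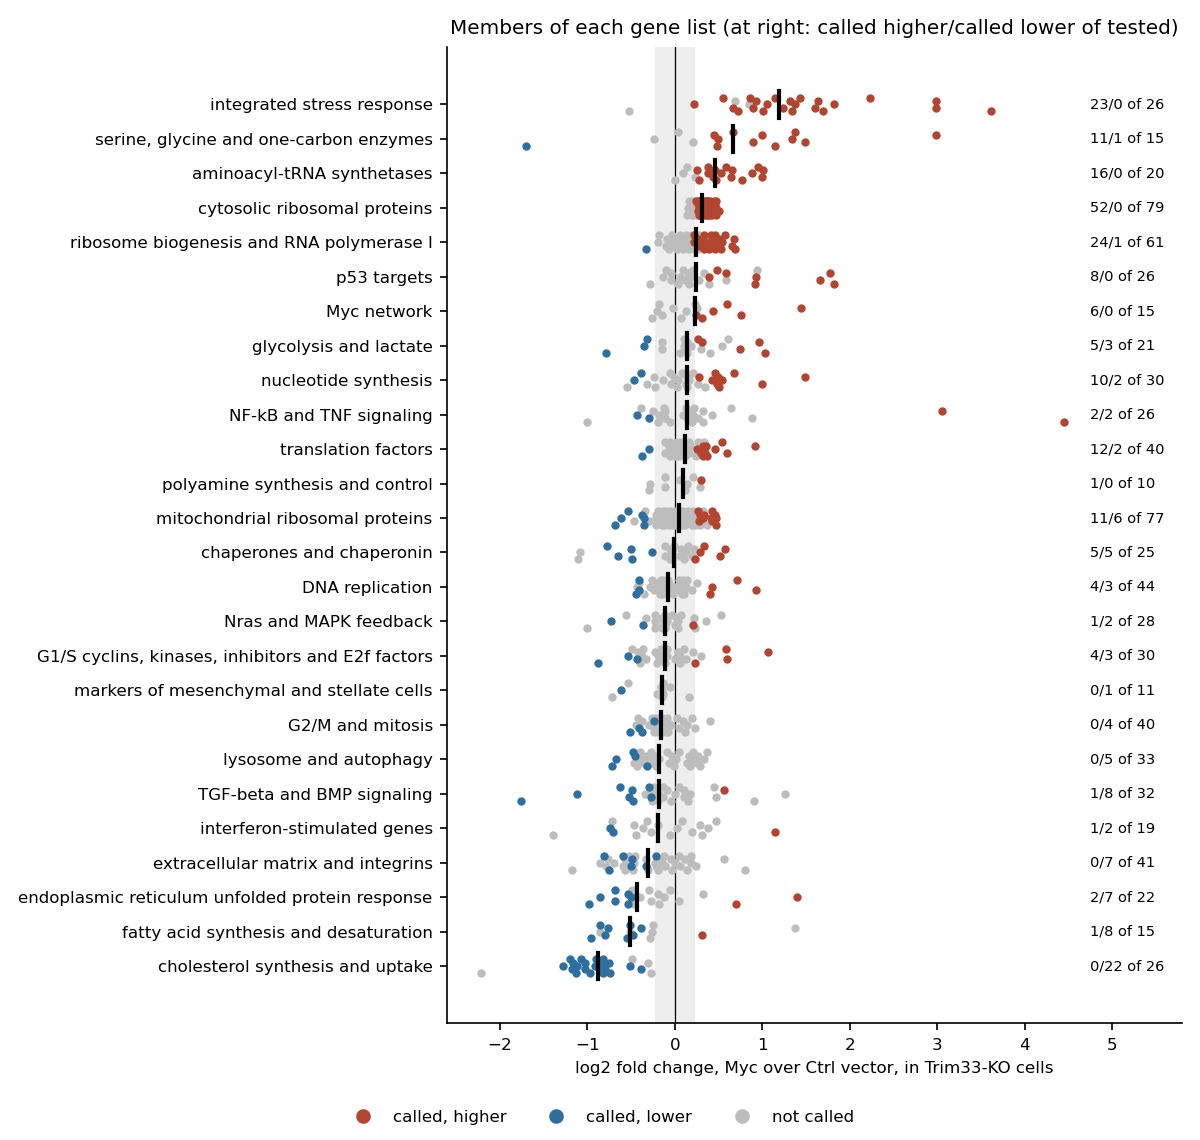
Log2 fold change of Myc over Ctrl vector in Trim33-KO cells (horizontal axis) for each tested member of the gene lists with at least 10 tested genes, where points are genes, colored when called, black ticks are medians and the gray band spans the quartiles of all genes tested. The integrated stress response has the highest median, 1.19, and the cholesterol genes the lowest, −0.882.

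The direction of several groups differed from that in Trim33-WT cells. In WT, Myc mRNA itself gave 0.07 with the vector (edgeR adjusted p = 0.31). The 2 WT Myc libraries differed from each other by 11.1 times counting noise in mean square, against 2.21 to 4.52 within the other groups. Of the 1098 genes called higher in KO, 430 were also called higher in WT and 199 were called lower there. Of the 994 called lower in KO, 427 were also called lower in WT and 151 were called higher. Among all 13107 genes, 21.6% were called higher and 22.7% lower in WT. Across all genes the changes in KO and in WT had a Pearson r of 0.199 and a Spearman rho of 0.238. The difference was tested per gene as the change with the vector in KO minus that in WT, in a fit of all 12 libraries. There, 2367 genes (18.1%) changed more upward in KO and 2176 (16.6%) more downward, together 34.7% of 13107. The spread in this fit is that between the 2 libraries of a group (biological coefficient of variation 0.0498). It leaves out differences between lines, so the p-values of this test do not measure them. In that fit the median change of the stress response list was 1.19 in KO and −0.369 in WT, and 24 of the 26 genes changed more upward in KO and 0 more downward. Of the 20 synthetases 15 changed more upward in KO (medians 0.471 and −0.57). Of the 27 cholesterol genes 20 changed more downward in KO and 1 more upward (−0.847 and 0.0356). Of 44 DNA replication genes 37 were called higher with Myc in WT (median 0.537, against 21.6% of all genes called higher there). The median in KO was −0.0699, and 32 of the 44 changed more downward in KO. Their levels with the Ctrl vector already differed between the genotypes, as given below. Cytosolic ribosomal proteins had medians of 0.32 in KO and 0.295 in WT, and 1 of 79 differed by the test, which does not show that the others were equal. Among single genes the test gave 5.45 for Cth, 4.02 for Aldh1l2, −3.51 for Rasl11a, −3.47 for Atoh8 and −3.39 for Sprr1b on the log2 scale. The changes in KO and in WT were 2.97 and −2.48 for Cth and 1.32 and −2.70 for Aldh1l2. They were 0.85 and 4.36 for Rasl11a, −0.19 and 3.28 for Atoh8 and −0.84 and 2.55 for Sprr1b. Except for Cth, the larger change was in WT, and Rasl11a, Atoh8 and Sprr1b were not called in the fit of 8 libraries. Sod3 (−8.97) was at 0 counts in both WT Ctrl libraries, so that its value rests on the prior count. Zscan4c (4.37) and Zscan4f (4.25) are near-identical copies that share reads and are uncertain, and in KO cells their labelled lines went in opposite directions. Their changes in WT were −4.51 and −4.5, and neither was called in KO.

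The KO Ctrl libraries started from other levels than the WT Ctrl libraries. All 4 libraries labelled KO Ctrl lay below both WT Ctrl libraries for 25 of 26 stress response genes, against 34.2% of all genes, and those labelled KO Myc did so for 22, against 33.2%. For 19 of 27 cholesterol genes the libraries labelled KO Ctrl lay above both WT Ctrl libraries (32.2% of all genes), and those labelled KO Myc did so for 5 (32.8%). For 33 of 44 DNA replication genes (75%) the libraries labelled KO Ctrl lay above both WT Ctrl libraries. Those labelled KO Myc did so for 38 (86.4%). Atf4, as an example, was 1230.3 and 1191 CPM in WT Ctrl, above the 674 to 933 of the libraries labelled KO Myc. Lss, at 47.8 to 56.8 CPM in the libraries labelled KO Myc, lay below the 70.9 and 69.7 CPM of WT Ctrl, and in those labelled KO Ctrl above them.

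**Figure D5:**
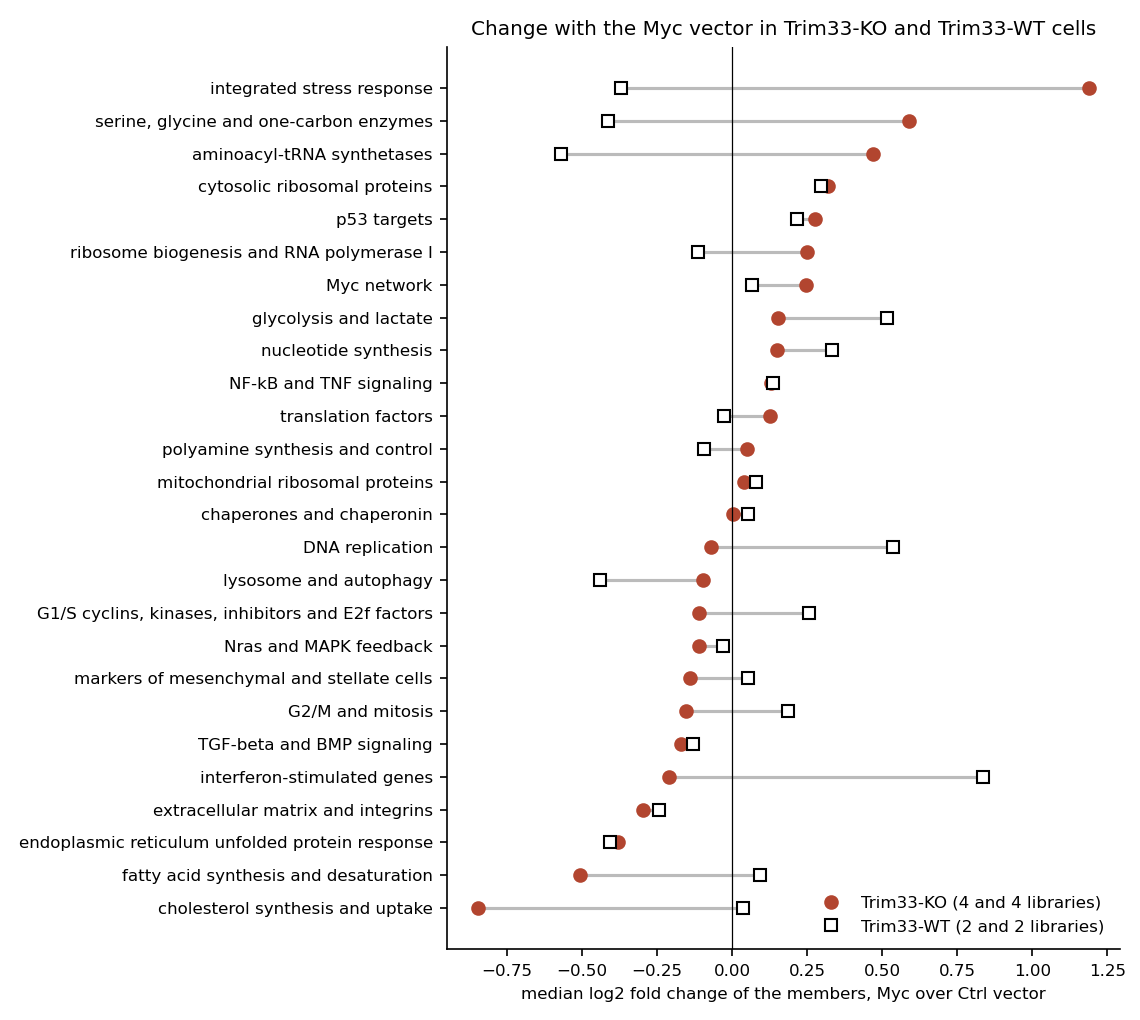
Median log2 fold change of Myc over Ctrl vector (horizontal axis) over the members of each gene list with at least 10 tested genes in Trim33-KO cells (red circles, 4 and 4 libraries) and Trim33-WT cells (open squares, 2 and 2 libraries), from the fit of all 12 libraries. The longest line among these lists is that of the integrated stress response, from −0.369 in WT to 1.19 in KO, and the cytosolic ribosomal proteins nearly coincide.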

How the data were processed

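RNA-seq was made from total RNA, with 2 libraries for each of 6 groups (KO1, KO2 or WT with the Ctrl or the Myc vector). The values used are whole-number counts per gene. Per the submitters' processing notes, the authors named bcl2fastq 2.20, FastQC 0.11.5, STAR 2.5.4, edgeR 3.26.8 and mm9 as their tools and build, and they deposited 1 table of counts per gene for this experiment. The study's text speaks of normalized values, but the columns hold whole numbers with unequal totals and were used as raw counts. Whether the counting used strand is not given in the sources used here.

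Groups were taken from the sample labels. edgeR 4.0.16 in R 4.3.3 (TMM factors, filterByExpr, glmQLFit and glmQLFTest, two-sided) compared 4 KO Myc with 4 KO Ctrl libraries. Genes were called at a Benjamini-Hochberg adjusted p under 0.01 over the 12465 genes tested. A fit of 12 libraries with a coefficient for each of 6 groups gave the changes in KO and in WT and their difference. Its spread is that within groups and leaves out differences between lines. Standard errors are the log2 fold change divided by the root of F. The scripts were tested on simulated data. The level shown is CPM, each count over its TMM-scaled library total. The library totals were at least 15084070 counts. In mean square, the 2 libraries of a group differed by 2.21 (KO1 Ctrl) to 11.1 (WT Myc) times counting noise, so counting error is part of the spread between libraries.

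Named genes were Myc and Trim33, the 8 largest rises and 8 largest falls among called genes with a mean of at least 5 CPM and no overlap between groups, up to 4 called members per list and direction by adjusted p, 12 known Myc targets, and the 4 genes with the largest difference between KO and WT each way. Genes outside this rule are marked in the text, and some genes that it named are not reported here. The members and lists were chosen with earlier results of these data known. Coordinates of genes are mm9 (GENCODE M1), and promoter windows are from RefSeq. Alternatives were DESeq2 1.42.0, RLE size factors, other filters, blocks for replicate number and line, other groupings and leaving out libraries. The hydroxyurea experiment was not used.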

Additional observations from a re-analysis of the deposited data

Results flagged for a closer look

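The cutoff for a library set apart is passed by chance in about 1 in 20 groups of 4 independent values. Each group here joins 2 lines, so that rate need not hold. Of 246 groups of 4 libraries tested, each a named gene in 1 vector group, 11 held a library set apart from the other 3. With the Myc vector these were Slc7a5 at 384 CPM and Slc3a2 at 306 CPM, both lowest in KO2 Myc replicate 1, Ddit3 at 67.1 CPM, highest in KO2 Myc replicate 2, Mxi1 at 108 CPM, highest in KO1 Myc replicate 2, and Cdh2 at 93.3 CPM, lowest in KO1 Myc replicate 1. With the Ctrl vector they were the low values of Dusp2 at 1.58 CPM in KO1 Ctrl replicate 2, of Aars at 249 CPM, Ccl20 at 0.065 CPM and Zscan4c at 3.32 CPM in KO2 Ctrl replicate 2, and of Herpud1 at 29.8 CPM in KO2 Ctrl replicate 1, and the high value of Bysl at 57.9 CPM in that library.

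For 92 of 123 named genes the change with the Myc vector differed between Trim33-KO and Trim33-WT cells by edgeR's test of the difference (KO minus WT, log2 scale). Over all 13107 genes it differed for 34.7%. Most named genes were chosen by their change in KO, and some by this test, so a higher share follows in part from that choice. Myc gave 1.38 and Trim33 0.749. The value of Trim33 rests on a fall in the libraries labelled WT Myc. In the fit of 12 libraries its log2 fold change was −0.82 in WT (edgeR adjusted p = 6.98e-08) and −0.07 in KO (edgeR adjusted p = 0.247). Genes of the integrated stress response and their transporters gave Trib3 3.64, Cth 5.45, Chac1 2.81, Ddit3 2.35, Atf4 1.46, Atf3 1.88, Asns 2.42, Aldh1l2 4.02, Slc7a1 1.82, Slc7a5 1.99, Slc3a2 1.55, Slc7a11 0.69, Sesn2 2.17, Cebpg 1.4, Phgdh 1.1, Psat1 0.911, Nupr1 0.607 and Vldlr 1.48. Serine and folate enzymes gave Mthfd2 1.91 and Shmt2 1.56. Synthetases gave Nars 1.94, Gars 1.24, Sars 1.84, Aars 1.33, Tars 1.31 and Iars 1.36. Sterol and fatty acid genes gave Acat2 −1.87, Stard4 −1.12, Lss −0.77, Sqle −0.859, Idi1 −1.82, Scd1 −0.708 and Elovl6 −1.12. Genes of ribosomes and translation gave Rpl12 0.413, Rrp1b 0.701, Nop14 1.22, Rcl1 0.3, Wdr74 0.877, Ncl 0.31, Nop56 0.473, Eif4ebp1 1.02 and Eif4g2 0.354. Partners of Myc gave Max 0.553 and Ruvbl2 0.495. Metabolic genes gave Rrm1 −0.892, Odc1 0.704, Ldha −0.52, Pfkp 0.417 and Pfkfb4 −1.18. Cell cycle and replication genes gave Ccnd2 1.52, Cdt1 0.268, Fen1 −0.941, Cdc6 −1.3, E2f1 −0.985, Ccne2 −1.84, E2f8 −0.779, Cdkn1a 0.418 and Mad2l1 −0.572. The inflammatory genes Ptgs2 and Nfkbia gave 0.67 and −1.39. Stress and chaperone genes gave Bbc3 1.28, Gadd45a 2.18, Ndrg1 2.27, Herpud1 1.47, Hspa5 0.917, Hspa9 1.44 and Hsph1 −0.813. Surface, matrix and signaling genes gave Ddr2 3.42, Reep6 2.89, Chst2 −2.62, Tm4sf4 −1.99, Tmem200a −1.15, Slit2 1.28, Col6a3 −0.766, Id2 −2.09, Has2 −0.914, Tapbp −1.27, Timp2 −0.261, Nid1 −1, Bmp2 −0.532, Id1 −1.95, Jun −1.3, Spp1 0.335 and Cdh2 −0.482. The genes chosen for the largest differences gave, besides Cth and Aldh1l2, Zscan4c 4.37, Zscan4f 4.25, Sod3 −8.97, Rasl11a −3.51, Atoh8 −3.47 and Sprr1b −3.39. Sod3 had 0 counts in both WT Ctrl libraries, so its value depends on the prior count and is no bound, and Zscan4c and Zscan4f are near-identical copies.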

How the results depend on the processing

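The number of called genes, 2092, depended on how the lines entered the fit. It was 5506 with 6 groups over 12 libraries, 6249 with 4 groups over 8 libraries and 4678 with a line block after KO1 and KO2 were exchanged among the Myc libraries, an alternative chosen after seeing the data, as were the counts of list members with libraries left out. Requiring a log2 fold change of at least 1 left 227. It was 1378 and 1387 without both libraries of KO1 Myc and of KO2 Myc, 1293 and 1191 without both of KO1 Ctrl and of KO2 Ctrl, and between 1225 and 1569 without any 1 library. Fewer libraries enter these last fits. It was 2182 with a line block, 2107 with RLE factors, 3091 with DESeq2, 2070 without a filter and 2113 at a mean of at least 5 CPM. With a replicate block it was 1455. Same-numbered libraries of the KO groups did not deviate together (correlations between −0.032 and 0.0319), so they share only a number.

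The Myc rise kept its direction and call under every alternative run. The difference of Trim33, not called, lay between −0.209 and 0.0371 without any 1 library, and was 0.2 without both libraries of KO2 Myc, 0.299 without both of KO2 Ctrl, −0.423 without both of KO1 Myc and −0.398 without both of KO1 Ctrl. For the other named genes and alternatives, 2127 values kept direction and side of the threshold, 234 lost the call, 35 gained it and 21 changed sign, none of these last in a gene called here. Without both libraries of KO1 Myc, Odc1 gave −0.0134, Cdk4 0.0409 and Atoh8 0.276. Without both of KO1 Ctrl, Cdk4 gave 0.0886, Sod3 0.338, Atoh8 0.059 and Hspa5 0.0724. Without both of KO2 Ctrl, E2f1 gave 0.0628 and Cdkn2b −0.196. Zscan4c gave −0.146 with 6 and with 4 groups, −0.0219 with a line block and −1.72 without both libraries of KO2 Myc, and Zscan4f −0.251, −0.25, −0.114 and −1.89. Without any 1 library Cdkn2b lay between −0.000348 and 0.26, Zscan4f between −0.0189 and 0.888 and Atoh8 between −0.317 and 0.027. The causes were not tested.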
